A study of Mus musculus with 11 samples.

Results

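The 8 genes described here encode the receptor chains of type I and type II interferons and the Janus kinases, in beta cells sorted by high or low surface PD-L1 after IFNγ and in untreated beta cells. They were taken by name: *Ifngr1* and *Ifngr2* for the IFNγ receptor, *Ifnar1* and *Ifnar2* for the type I receptor, and the kinase genes *Jak1*, *Jak2*, *Jak3* and *Tyk2*. Each symbol matched 1 row, so they are 8 of the 55487 genes in the files, and all 8 had enough counts to be tested, as did 16252 genes in all (filterByExpr of edgeR, minimum 10 counts).

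IFNγ binds a receptor made of IFNGR1, the chain that holds the ligand, and IFNGR2, the accessory chain. JAK1 sits on IFNGR1 and JAK2 on IFNGR2, and once the chains are brought together these kinases phosphorylate the receptor, and the signal passes to the nucleus, where genes such as *Irf1* are switched on. Type I interferons use IFNAR1 with TYK2 and IFNAR2 with JAK1, while JAK3 works with the common gamma chain of lymphoid cytokine receptors. A cell without one of the IFNγ receptor chains or kinases cannot answer the cytokine, and the question here is whether the RNA of these genes differs between cells that answered more and less.

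Islets of 12-week-old male C57BL/6JRj mice were kept in culture for 20 h, either exposed to IFNγ at 50 pg/mL or left untreated, and beta cells were then sorted by flow cytometry as EpCam+ cells with low CD24 and with CD71. Cells of the treated islets were split by surface PD-L1 into PD-L1high cells (4 libraries, replicates 1 to 4) and PD-L1low cells (3 libraries, replicates 2 to 4), and control beta cells came from the untreated islets (4 libraries, replicates 1 to 4). No transgene or deletion was used, the number of mice pooled in a library was not given in the sources used here, and p-values measure the spread between these libraries. The PD-L1 gate itself is a readout of the response to IFNγ, and RNA was taken after the 20 h of exposure, so levels before exposure and receptor protein were not measured in these libraries. In PD-L1high and PD-L1low beta cells the paper reported similar *Ifngr1* and *Ifngr2* RNA by RT-qPCR and similar surface receptor by flow cytometry.

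Library totals ran from 10422018 to 15810769 counts with 5.55% to 13.3% from mitochondrial genes, and each of the 8 genes had at least 40 counts in every library. The fewest were those of *Ifngr2* (40 to 389 counts) and the most those of *Jak1* (2582 to 4641 counts). Levels are given as CPM (counts scaled by library size after TMM normalization) for comparing libraries, and as TPM (which also corrects for transcript length) for comparing genes. Bulk RNA cannot tell fewer expressing cells from less RNA per cell. All 8 markers of beta cells were abundant, with a summed level of 62129 to 90412 CPM in PD-L1high, 71934 to 77314 CPM in PD-L1low and 60909.5 to 93673 CPM in control libraries, and *Ptprc*, the pan-leukocyte gene, stayed at or below 0.104 CPM.

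The genes lie on 6 chromosomes of GRCm38, and 3 of the 4 receptor chains share one locus. *Ifngr1* is at chr10:19591949-19610229 on the plus strand. *Ifnar2* (chr16:91372783-91405589), *Ifnar1* (chr16:91485238-91507441) and *Ifngr2* (chr16:91547072-91565623), all on the plus strand, follow each other with *Il10rb*, a chain of the interleukin-10 and interferon lambda receptors, between the first pair. *Jak1* is at chr4:101152367-101265282 (minus strand), *Jak2* at chr19:29251828-29313080 (plus), *Jak3* at chr8:71676296-71690575 (plus) and *Tyk2* at chr9:21104068-21131243 (minus). The start of *Jak2* is 115.6 kb from that of *Cd274*, the gene of PD-L1. Annotated genes overlap *Ifnar2*, *Jak1*, *Jak3* and *Tyk2*, and the one with the most reads in any library was *Raver2* on the strand opposite *Jak1*, with at most 67 counts. RSEM divides reads that fit more than 1 gene, so the counts in such stretches are estimates.

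Promoters were compared for 2 short DNA elements known from interferon-responsive genes, the gamma-activated site or GAS (TTCNNNGAA) and the interferon-stimulated response element or ISRE (GAAANNGAAA). Both strands were searched in 300 bases (250 before to 50 after the start) of RefSeq promoters on GRCm38.p6. The promoters of *Ifngr1* and *Jak2*, whose products form part of the IFNγ receptor complex, are shown beside one of the 2 promoters of *Irf1*, a gene that IFNγ switches on; all are on the plus strand, and capitals mark the letters of the GAS.
Ifngr1, chr10:19591699-19591998: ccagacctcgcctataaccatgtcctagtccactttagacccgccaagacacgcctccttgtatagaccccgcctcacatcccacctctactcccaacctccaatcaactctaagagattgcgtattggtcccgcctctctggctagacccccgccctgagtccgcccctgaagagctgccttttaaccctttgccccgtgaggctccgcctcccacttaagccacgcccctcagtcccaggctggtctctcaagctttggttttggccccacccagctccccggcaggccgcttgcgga
Jak2, chr19:29251553-29251852: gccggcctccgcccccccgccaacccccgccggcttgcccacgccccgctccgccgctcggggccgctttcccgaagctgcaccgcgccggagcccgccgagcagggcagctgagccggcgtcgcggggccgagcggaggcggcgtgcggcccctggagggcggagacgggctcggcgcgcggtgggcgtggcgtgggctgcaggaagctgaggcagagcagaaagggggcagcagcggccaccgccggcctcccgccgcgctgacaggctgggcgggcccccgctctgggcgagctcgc
Irf1, chr11:53769764-53770063: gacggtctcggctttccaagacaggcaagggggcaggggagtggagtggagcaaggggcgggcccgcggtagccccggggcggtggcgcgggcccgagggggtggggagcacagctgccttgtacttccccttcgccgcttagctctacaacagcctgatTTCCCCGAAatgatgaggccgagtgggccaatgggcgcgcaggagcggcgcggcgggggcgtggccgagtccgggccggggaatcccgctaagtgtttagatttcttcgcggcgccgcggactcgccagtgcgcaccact
The GAS letters in the *Irf1* promoter begin 90 bases before the start, its other promoter window held neither motif, and neither motif was found in the *Ifngr1* or *Jak2* window. GAS letters were present in 2 of the 8 promoters, those of *Ifnar1* (TTCACGGAA, 5 bases before the start) and *Ifnar2* (TTCCTGGAA, 214 bases before the start), against 8.30% of all 32851 promoters and 16.5% of 139 promoters of genes that were higher in PD-L1high than in control cells. ISRE letters were present in 0 of the 8 promoters, against 3.44% of all promoters and 30.9% of those 139. A match says only that the letters are there.

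Per length, *Jak1* was by far the most abundant of the 8 in these beta cells. Its median over the 11 libraries was 69.9 TPM (52.5 to 83.6), at the 94.0th percentile of the genes tested, and it exceeded the next gene in 11 of 11 libraries. A middle tier held *Ifnar2* (15.9 TPM, 6.19 to 22.95), *Jak2* (14.8 TPM, 9.24 to 22.5) and *Ifnar1* (12.4 TPM, 6.17 to 22.5). These 3 did not separate: *Ifnar2* was above *Jak2* in 5 of 11 libraries and *Jak2* above *Ifnar1* in 7. The highest TPM of *Ifnar1* was that of PD-L1low replicate 4, at 31.5 CPM. RSEM assigned *Ifnar1* a transcript length of 1325 bases there, against 2608 to 3818 bases in the other libraries. *Ifngr1* followed with 9.02 TPM (5.73 to 11), below *Ifnar1* in 10 of 11 libraries. The lowest were *Tyk2* (5.07 TPM, 2.75 to 7.63), *Jak3* (4.08 TPM, 1.93 to 8.76) and *Ifngr2* (3.25 TPM, 1.02 to 8.25). *Tyk2* was above *Jak3* in 9 and *Jak3* above *Ifngr2* in 10 of 11 libraries. Of the 4 genes of the IFNγ receptor complex, the accessory chain *Ifngr2* had the lowest TPM, at the 37.0th percentile of the genes tested.

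**Figure D1:**
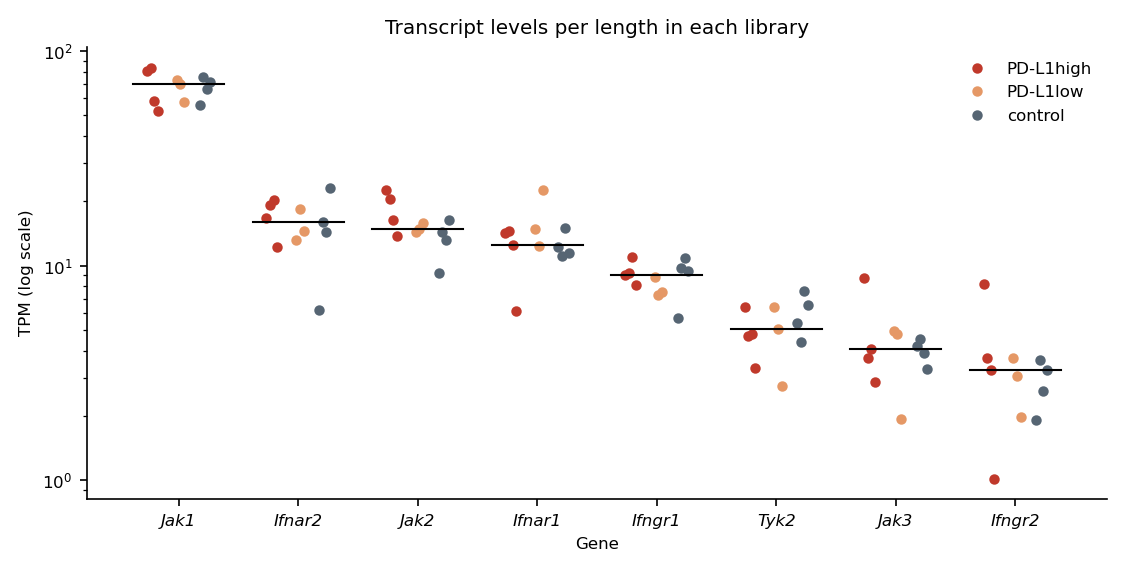
TPM (log axis) of the 8 genes in each library, ordered by the median over 11 libraries (black lines), with PD-L1high, PD-L1low and control libraries from left to right within each gene. *Jak1* stands apart at a median of 69.9 TPM, and *Ifngr2* is lowest at 3.25 TPM with the widest spread, 1.02 to 8.25 TPM.

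The transcript length that RSEM assigned to *Ifngr1*, which enters its TPM, was noticed after its values were seen. It was 1943, 1843, 1798 and 1985 bases in PD-L1high, 1844, 1942 and 1959 bases in PD-L1low, and 1305, 1758, 1455 and 1765 bases in control libraries. Every library of IFNγ-treated islets lay above every control library. Of the genes tested, 0.911% were longer without overlap in PD-L1high than in control libraries and 1.26% in PD-L1low than in control libraries. For the other 7 genes the lengths of PD-L1high and control libraries overlapped. The overlap was narrow for *Jak1*, at 4460 to 4802 bases in PD-L1high and 3409 to 4500 bases in control libraries. The length is estimated from 108 to 237 counts of *Ifngr1* and the annotated transcripts they fit.

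Neither chain of the IFNγ receptor passed the test in any comparison. *Ifngr1* had 13.5, 13.9, 18.5 and 16.5 CPM in PD-L1high, 14.2, 12.1 and 16.6 CPM in PD-L1low, and 8.38, 15.3, 13.1 and 14.4 CPM in control libraries. The groups overlapped, with control replicate 1 below all others. Between PD-L1high and PD-L1low cells the log2 fold change of *Ifngr1* was 0.26 (SE 0.21), a fold of 1.19 with a 95% interval of 0.876 to 1.63 (adjusted p = 0.788, edgeR). Relative to control it was 0.31 (SE 0.19) in PD-L1high and 0.06 (SE 0.21) in PD-L1low cells.

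*Ifngr2* had 25.0, 12.1, 12.2 and 4.15 CPM in PD-L1high, 9.44, 10.4 and 6.32 CPM in PD-L1low, and 8.45, 13.0, 8.76 and 11.4 CPM in control libraries. The highest and the lowest of all 11 libraries were both PD-L1high, replicates 1 and 4, so the range of that group enclosed the others. The log2 fold change was 0.33 (SE 0.41) between PD-L1high and PD-L1low cells, a fold of 1.25 with an interval of 0.678 to 2.32 (adjusted p = 0.879, edgeR), and 0.16 (SE 0.36) and -0.17 (SE 0.39) for PD-L1high and PD-L1low cells relative to control. These values rest on few libraries. Against control, the PD-L1high value was -0.32 without PD-L1high replicate 1 and -0.32 without control replicate 1. Replicate 1 has no PD-L1low library, so with the replicate term both fits lose the same pair and are not separate checks. The PD-L1high value was 0.54 without PD-L1high replicate 4, and the PD-L1low value was 0.31 without control replicate 4. Between PD-L1high and PD-L1low cells the log2 fold change was 0.07 without PD-L1high replicate 1 and 0.72 without PD-L1high replicate 4. PD-L1high replicate 1 also had the highest summed level of duct markers, 467 CPM. Nearly all of it was *Spp1* (466 CPM, against 104 to 149 CPM in the other PD-L1high libraries). In PD-L1low libraries *Spp1* was at 207 to 228 CPM and in control libraries at 125 to 207 CPM. *Krt19* was also highest in PD-L1high replicate 1, at 1.29 CPM against 0.296 to 1.20 CPM in the other libraries. *Sox9* and *Cftr* stayed at or below 0.157 CPM in every library. The part of these duct markers in the *Ifngr2* value was not tested.

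The type I receptor chains, which IFNγ does not use, gave no call either. *Ifnar1* had 39.7, 37.9, 34.7 and 26.0 CPM in PD-L1high, 37.3, 35.9 and 31.5 CPM in PD-L1low, and 39.6, 34.2, 40.0 and 40.8 CPM in control libraries. *Ifnar2* had 13.7, 17.2, 20.99 and 16.1 CPM in PD-L1high, 13.4, 16.5 and 18.5 CPM in PD-L1low, and 8.92, 15.5, 14.7 and 21.6 CPM in control libraries. All 3 groups overlapped for both chains, and both extremes of *Ifnar2* were control libraries, replicates 1 and 4. Between PD-L1high and PD-L1low cells the log2 fold change was -0.06 (SE 0.16) for *Ifnar1* and 0.25 (SE 0.21) for *Ifnar2*, with adjusted p values of 0.947 and 0.799 from edgeR.

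Of the 2 kinases of the IFNγ receptor, *Jak1* overlapped in all groups and *Jak2* stood higher in PD-L1high than in control libraries without passing the test. *Jak1* had 298.8, 358, 268 and 268 CPM in PD-L1high, 328, 304 and 311 CPM in PD-L1low, and 243, 319, 267 and 309 CPM in control libraries, with overlapping groups. Its log2 fold change was -0.05 (SE 0.12) between PD-L1high and PD-L1low cells, the narrowest interval of the 8 genes at 0.811 to 1.15 on the fold scale. *Jak2* had 81.6, 81.3, 69.8 and 72.3 CPM in PD-L1high, 59.1, 59.8 and 80.1 CPM in PD-L1low, and 58.4, 64.6, 49.8 and 67.4 CPM in control libraries. Every PD-L1high library lay above every control library, while PD-L1low replicate 4 lay among the PD-L1high libraries and PD-L1low replicates 2 and 3 among the controls. *Jak2* was the only one of the 8 genes whose PD-L1high and control CPM did not overlap, which was the case for 4.29% of the genes tested. Its log2 fold change against control was 0.35 (SE 0.12) in PD-L1high cells, a fold of 1.28 with an interval of 1.07 to 1.52, higher in 4 of 4 replicates (unadjusted p = 0.00933, adjusted p = 0.385, edgeR), and the adjusted p ran from 0.151 to 1.00 over 23 alternatives. For PD-L1low against control cells it was 0.15 (SE 0.13), and between PD-L1high and PD-L1low cells 0.20 (SE 0.13).

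*Jak3*, known from lymphoid cells, had 26.7, 12.5, 16.3 and 12.8 CPM in PD-L1high, 18.1, 17.2 and 8.50 CPM in PD-L1low, and 20.7, 16.9, 14.2 and 12.2 CPM in control libraries. The groups overlapped, with the highest value in PD-L1high replicate 1 and the lowest in PD-L1low replicate 4, and the log2 fold change of *Jak3* between PD-L1high and PD-L1low cells was 0.03 (SE 0.22). *Il2rg*, the common gamma chain that JAK3 binds, had 0 counts in all 11 libraries, which allows up to 0.312 CPM in the shallowest (3 counts, counting error only); it was named after its values were seen. Of 7 leukocyte markers 2 passed the filter, *Adgre1*, *Lyz2* and *Cd3e* had 0 counts throughout, and the summed level was 3.42 to 5.79 CPM in PD-L1high, 2.67 to 4.95 CPM in PD-L1low and 3.26 to 4.75 CPM in control libraries. *Tyk2*, the kinase of IFNAR1, had 18.7, 13.5, 17.8 and 13.4 CPM in PD-L1high, 21.9, 18.2 and 14.2 CPM in PD-L1low, and 21.4, 17.1, 25.5 and 22.8 CPM in control libraries. The PD-L1high value of *Tyk2* was below the control of the same number in 4 of 4 replicates, and the groups overlapped. The log2 fold change of *Tyk2* against control was -0.46 (SE 0.18) in PD-L1high cells (unadjusted p = 0.0233, adjusted p = 0.536, edgeR) and -0.22 (SE 0.20) in PD-L1low cells.

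**Figure D2:**
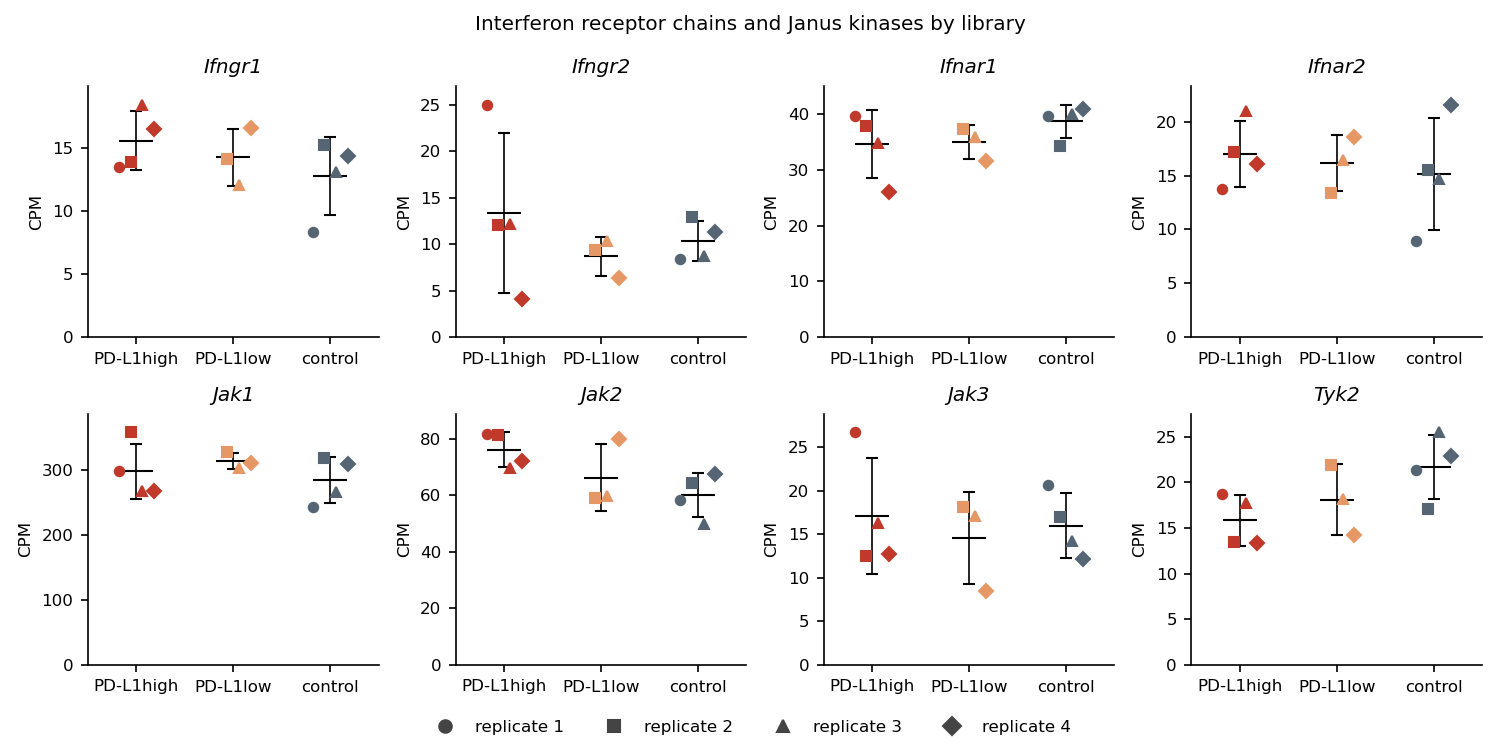
CPM of each of the 8 genes in PD-L1high, PD-L1low and control libraries, with 1 symbol per replicate number, the mean (horizontal bar) and the SD (whiskers). Only *Jak2* separates PD-L1high (69.8 to 81.6 CPM) from control libraries (49.8 to 67.4 CPM), and *Ifngr2* spreads from 4.15 to 25.0 CPM within the PD-L1high group.

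Across the 8 genes, 0 were called in PD-L1high against control cells by edgeR's quasi-likelihood test (adjusted p under 0.05), where 0.991% of the 16252 genes tested were called. In PD-L1low against control cells 0 of 8 were called, against 0.0800% of all genes, and between PD-L1high and PD-L1low cells 0 of 8, against 0.732%. Before adjustment, 2 of 8 had a p under 0.05 in PD-L1high against control cells (*Jak2* and *Tyk2*, against 7.65% of all genes), 0 of 8 in PD-L1low against control cells (2.10%) and 0 of 8 between the sorted populations (8.52%). DESeq2 and limma-voom gave the same counts of 0 called, and of 2, 0 and 0 at an unadjusted p under 0.05. The CPM of PD-L1low and control libraries overlapped for all 8 genes (2.71% of the genes tested did not overlap), as did those of PD-L1high and PD-L1low libraries (8.01%). The log2 fold change was above 0 for 6 of 8 genes in PD-L1high against control cells (47.0% of all genes), 4 of 8 in PD-L1low against control cells (50.1%) and 5 of 8 between PD-L1high and PD-L1low cells (49.5%).

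The differences between PD-L1high and PD-L1low cells were bounded as follows. The log2 fold changes of the 8 genes ran from -0.24 (*Tyk2*) to 0.33 (*Ifngr2*), with a median of 0.12 beside -0.0042 over all genes tested. For 7 of the 8 the 95% interval stayed within 2-fold in either direction, as it did for 58.8% of the genes tested, and the exception was *Ifngr2*, whose interval reached 2.32-fold. Relative to control the interval stayed within 2-fold for 8 of 8 genes in PD-L1high and for 7 of 8 in PD-L1low cells (62.5% of the genes tested in each), and the medians were 0.11 and -0.0019, beside -0.02 and 0.00037 over all genes. An interval inside 2-fold does not show that levels were equal.

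The size of the response in the same libraries is given for scale. *Cd274*, which encodes the protein used for the gate, was at 172 to 279 CPM in PD-L1high, 30.5 to 47.0 CPM in PD-L1low and 15.1 to 25.1 CPM in control libraries. Its log2 fold change between the sorted populations was 2.48 (SE 0.16), a difference that the gate itself selects. *Irf1*, a transcription factor induced by IFNγ, differed by 1.17 (SE 0.14), *Tap1*, the peptide transporter of antigen presentation, by 1.85 (SE 0.16), *Igtp*, an immunity-related GTPase, by 2.64 (SE 0.16), and *Gbp2*, a guanylate-binding protein, by 4.18 (SE 0.30), all called by edgeR. In PD-L1high against control cells 5 of these 5 were called, and in PD-L1low against control cells 3 of 5 (*Cd274*, *Igtp* and *Tap1*), with *Irf1* at 0.63 (adjusted p = 0.329, and under 0.05 in 3 of 23 alternatives: DESeq2, no filter on low counts and without control replicate 1, at 0.00968 to 0.0466) and *Gbp2* at 2.09 (adjusted p = 0.0765, and under 0.05 in 10 of 22 alternatives). The PD-L1low call of *Cd274* (log2 fold change 0.94, adjusted p = 0.0394, edgeR) was lost without PD-L1high replicate 2, any PD-L1low library or any of control replicates 2 to 4 (adjusted p 0.0664 to 0.307), and without the replicate term (0.276). Both comparisons with control use the same 4 control libraries.

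**Figure D3:**
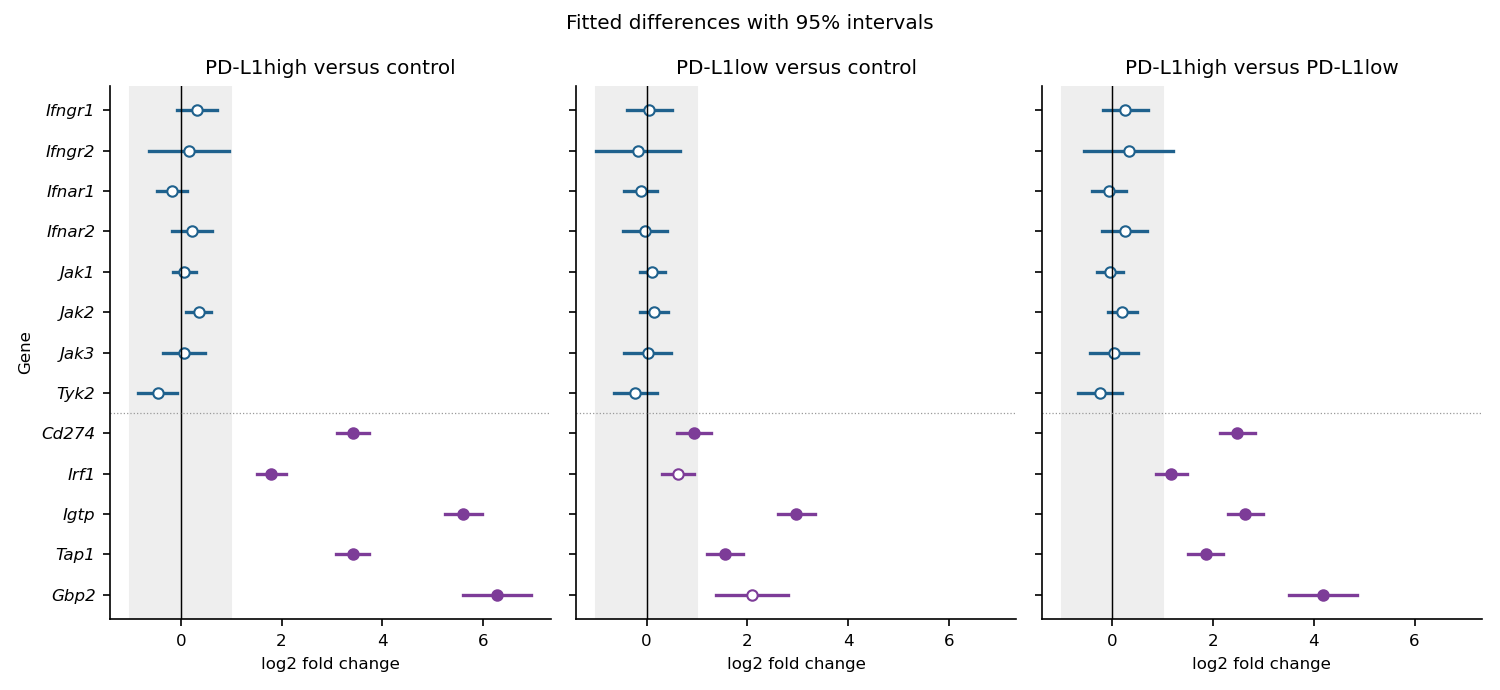
Log2 fold change (points) with 95% interval (lines) of the 8 genes (blue) and of 5 genes of the response (purple) for PD-L1high versus control, PD-L1low versus control and PD-L1high versus PD-L1low; filled points passed an adjusted p of 0.05 and the grey band marks 2-fold in either direction. The 8 genes lie between -0.46 and 0.35, while *Gbp2* reaches 6.27 in PD-L1high versus control.

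Ratios within a library, which do not depend on its depth, were compared for the chains and the kinases of the IFNγ receptor. The TPM of *Jak2* was 0.278, 0.245, 0.279 and 0.261 times that of *Jak1* in PD-L1high, 0.195, 0.212 and 0.275 times in PD-L1low, and 0.164, 0.190, 0.197 and 0.227 times in control libraries. PD-L1high and control libraries did not overlap, and PD-L1low replicate 4 again sat with the PD-L1high libraries. The mean log2 ratio was 0.46 higher in PD-L1high than in control cells (two-sided exact permutation p = 0.0286, the smallest that 4 against 4 libraries allow, and 0.171 after adjustment over 6 ratio tests). Computed from CPM the difference was 0.28, and the ranges then met, at 0.227 to 0.273 in PD-L1high and 0.187 to 0.240 in control libraries. For PD-L1low against control cells the difference in log2 TPM ratio was 0.22 (exact permutation p = 0.286) and turned to -0.012 when computed from CPM, and between PD-L1high and PD-L1low cells 0.24 (exact permutation p = 0.143). With 4 against 3 libraries such a test cannot go below 0.0286 either. The TPM of *Ifngr2* was 0.915, 0.402, 0.298 and 0.126 times that of *Ifngr1* in PD-L1high, 0.418, 0.421 and 0.263 times in PD-L1low, and 0.335, 0.372, 0.239 and 0.345 times in control libraries, with exact permutation p values of 0.857 for PD-L1high against control, 0.514 for PD-L1low against control and 0.943 between the sorted populations. Replicates 1 and 4 of PD-L1high set the extremes of this ratio, and without replicate 1 the log2 difference from control was -0.36, without replicate 4 it was 0.59, against 0.11 with both. All 3 differences of this ratio changed direction when computed from CPM, at -0.19 for PD-L1high against control (0.11 from TPM), -0.45 for PD-L1low against control (0.17 from TPM) and 0.26 between the sorted populations (-0.07 from TPM).

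**Figure D4:**
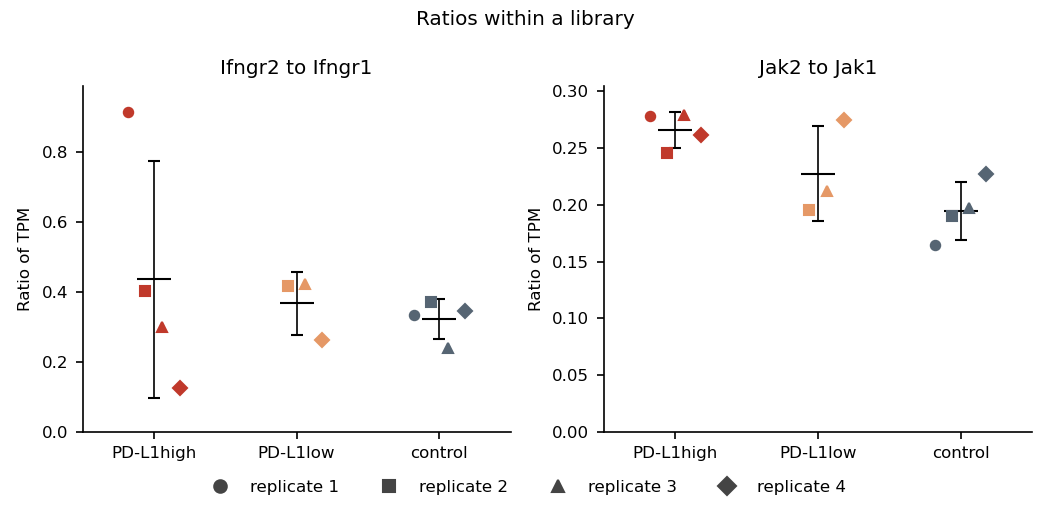
Ratio of TPM within each library for *Ifngr2* to *Ifngr1* and *Jak2* to *Jak1* in PD-L1high, PD-L1low and control cells, with the mean (bar) and the SD (whiskers). The *Jak2* to *Jak1* ratio is 0.245 to 0.279 in PD-L1high and 0.164 to 0.227 in control libraries, and the receptor chain ratio spans 0.126 to 0.915 among PD-L1high libraries.

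Other parts of the pathway were counted in the same fit. Of 21 interferon genes 0 passed the filter, 19 had no count in any library, *Ifng* among them, and all 21 together gave 10 counts over the 11 libraries, from *Ifnk* and *Ifnl3*. Of 38 receptor chains of other cytokines that signal through Janus kinases 17 passed the filter and 0 were called in any comparison by edgeR, where 0.991%, 0.0800% and 0.732% of all genes were called in PD-L1high against control, PD-L1low against control and PD-L1high against PD-L1low. An unadjusted p under 0.05 was found for 4, 1 and 4 of the 17, beside 7.65%, 2.10% and 8.52% of all genes. Their median log2 fold changes in those 3 comparisons were 0.07, -0.11 and 0.19. The 3 with the highest mean CPM are named. *Prlr*, the prolactin receptor, which signals through JAK2, was at 992 to 1656 CPM in PD-L1high, 1155 to 1371 CPM in PD-L1low and 1021 to 1677 CPM in control libraries. *Ghr*, the growth hormone receptor, had 325 to 394 CPM in PD-L1high, 418 to 472 CPM in PD-L1low and 385 to 449 CPM in control libraries. *Lifr*, the receptor of leukemia inhibitory factor, had 210 to 265 CPM in PD-L1high, 238 to 280 CPM in PD-L1low and 209 to 271 CPM in control libraries.

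Calls appeared among the signal transducers downstream of the kinases. Of all genes, 0.941% were called higher in PD-L1high against control cells, 0.0615% in PD-L1low against control cells and 0.640% in PD-L1high against PD-L1low cells. Of 7 transducer genes 6 passed the filter, and in PD-L1high against control cells 2 were higher: *Stat2* (log2 fold change 1.88, SE 0.21) and *Irf9* (1.61, SE 0.16), whose products work together downstream of the type I receptor. *Stat2* was at 85.5 to 120 CPM in PD-L1high, 36.4 to 46.6 CPM in PD-L1low and 20.7 to 64.5 CPM in control libraries. In PD-L1low against control cells 0 of 6 were called by edgeR (2 at an unadjusted p under 0.05, *Stat2* and *Irf9*), with *Stat2* at 0.77 and *Irf9* at 0.76. DESeq2 called *Irf9* there (adjusted p = 0.0460), and edgeR called both without PD-L1high replicate 1 (adjusted p = 0.00318 for *Stat2* and 0.0205 for *Irf9*) or without control replicate 1 (0.00233 and 0.0170). With the replicate term both of these edgeR fits lose the same replicate 1 pair, so they are not separate checks. Between the sorted populations *Stat2* was higher in PD-L1high cells by 1.11 and *Irf9* by 0.84, and the median over the 6 was 0.26. These calls between the sorted populations were lost without any of PD-L1high replicates 2 to 4, any PD-L1low library or control replicate 4, with adjusted p up to 0.344 for *Stat2* and 0.308 for *Irf9* (edgeR). Without the replicate term *Stat2* also missed the threshold in PD-L1high against control cells (adjusted p = 0.0551, edgeR) and both missed it between the sorted populations (0.393 and 0.0865). Of 18 inhibitors of the pathway (SOCS, PIAS, phosphatases and others), all tested, *Usp18* alone was called. It encodes a protease that binds IFNAR2 and dampens type I signalling, and was at 18.2 to 38.5 CPM in PD-L1high, 10.4 to 13.9 CPM in PD-L1low and 8.78 to 16.4 CPM in control libraries. Its log2 fold change was 1.27 (SE 0.18) for PD-L1high against control cells and 1.19 (SE 0.21) between the sorted populations, the second lost without PD-L1high replicate 2 or 3 or PD-L1low replicate 2 or 3 (adjusted p 0.0855 to 0.110, edgeR). The inhibitors had a median log2 fold change of 0.03, 0.02 and 0.11 in PD-L1high against control, PD-L1low against control and PD-L1high against PD-L1low.

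**Figure D5:**
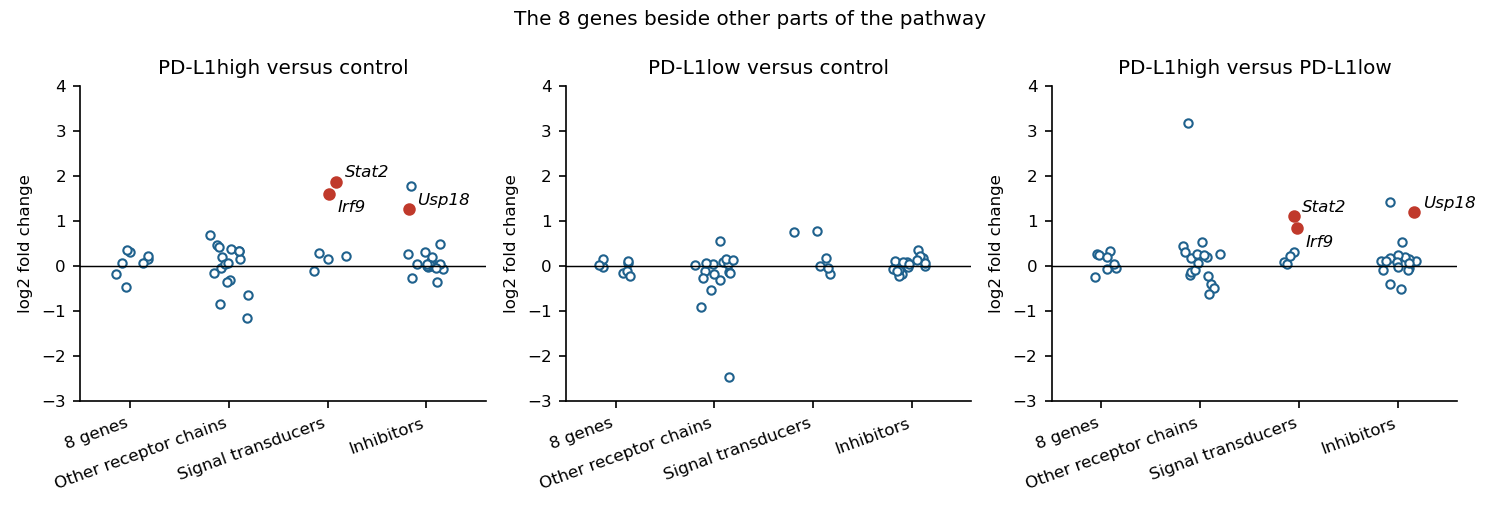
Log2 fold change of the 8 genes, the tested receptor chains of other cytokines, the signal transducers and the inhibitors in the 3 comparisons, 1 point per gene, with genes at an adjusted p under 0.05 filled and named. The named genes are *Stat2*, *Irf9* and *Usp18*, and none is a receptor chain or a kinase. Over all genes tested, 0.991%, 0.0800% and 0.732% were called in PD-L1high versus control, PD-L1low versus control and PD-L1high versus PD-L1low.

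Around the 8 genes, 21 tested genes start within 100 kb of the start of one of them, *Ifnar1* and *Ifngr2* included, with 0 near *Ifngr1* or *Jak2*. The nearest were *A930006K02Rik* for *Ifnar1*, *Il10rb* for *Ifnar2*, *Tmem50b* for *Ifngr2*, *E130102H24Rik* for *Jak1*, *Unc13a* for *Jak3* and *Cdc37* for *Tyk2*, none of them called. Of the 21, 1 was called in PD-L1high against control cells (0.991% of all genes), 0 in PD-L1low against control cells (0.0800%) and 1 in PD-L1high against PD-L1low cells (0.732%). *B3gnt3*, a glycosyltransferase gene that starts 25.5 kb from *Jak3* and runs toward it on the other strand, was higher in PD-L1high than in control cells (log2 fold change 0.76, adjusted p = 0.00322, edgeR) and than in PD-L1low cells (0.64, adjusted p = 0.0483, edgeR, past the threshold in 11 of 23 alternatives). That second call was lost without any PD-L1high library, any PD-L1low library or control replicate 3 or 4, with adjusted p up to 0.365, and under other scalings (0.0512 to 0.104). In the chromosome 16 locus *Il10rb* was at 10.2 to 14.1 CPM in PD-L1high, 6.81 to 8.80 CPM in PD-L1low and 7.88 to 9.67 CPM in control libraries. PD-L1high libraries lay above all others there, but *Il10rb* did not pass edgeR's test (log2 fold change 0.38 against control, adjusted p = 0.737, and 0.52 against PD-L1low, adjusted p = 0.581).

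Markers of other islet cells differed between the groups and are given beside the comparisons. Both PP cell markers, *Ppy* and *Pyy*, were called higher in PD-L1high than in PD-L1low cells and lower in PD-L1low than in control cells, and 1 of them was called higher in PD-L1high than in control cells, with a summed level of 233 to 562 CPM in PD-L1high, 26.8 to 33.5 CPM in PD-L1low and 150 to 382 CPM in control libraries. The summed level of 5 alpha cell markers was 561 to 1483 CPM in PD-L1high, 349 to 353 CPM in PD-L1low and 323 to 1387 CPM in control libraries, and that of 3 delta cell markers was 11.4 to 39.4 CPM in PD-L1high, 3.51 to 9.11 CPM in PD-L1low and 6.70 to 33.2 CPM in control libraries. Of the 5 alpha markers tested 1 was called higher in PD-L1high than in PD-L1low cells, as was 1 of the 2 delta markers tested. In either comparison with control 0 of them were called. Over all genes tested, 0.732% were called in PD-L1high against PD-L1low, 0.0800% in PD-L1low against control and 0.991% in PD-L1high against control cells. Whether such cells carry part of the receptor and kinase RNA was not tested.

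The genes whose log2 CPM followed the members most closely over the 11 libraries, after the mean of each replicate number was removed, are named as a description. For *Ifngr1* they were *Misp* (Pearson r = 0.96), *Gstp2*, *Polr2c*, *Tspo* and *Ngly1*. For *Ifngr2* they were *Gps1* (0.98), *Slc37a1*, *Ltbr*, *Dusp23* and *Cmtm4*, for *Jak1* *Lrtm2* (0.95), *Fam57a*, *Osbpl1a*, *Crtap* and *Gm9762*, and for *Jak2* *Abce1* (0.97), *Rnf115*, *Rtn4*, *Rbm43* and *Bloc1s5*. They are the highest of 16252 genes over few libraries, and the libraries share depth and composition.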

How the data were processed

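Bulk RNA-seq of 11 libraries was used. Per the study's methods, libraries were made with the Ovation Solo kit, aligned with STAR 2.5.2b to GRCm38.p6 and quantified with RSEM, whose version is not given in the sources used here. The expected counts and the TPM per gene, and the transcript length, were deposited by the authors with 1 library per file. Expected counts were rounded to whole numbers. Names and positions came from GENCODE M21, which matched 55141 of 55487 identifiers, and promoters from RefSeq (GRCm38.p6).

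Genes were filtered with filterByExpr (16252 kept), scaled by TMM and fitted with edgeR 4.0.16 (robust quasi-likelihood, R 4.3.3) over all 11 libraries with group and replicate number as terms. The methods name a batch term, and the replicate number is the only such grouping in the labels. Benjamini-Hochberg adjustment was applied per comparison (threshold 0.05). Intervals are 95%. Alternatives were DESeq2 1.42.0, limma-voom (limma 3.58.1), other scalings and filters, no replicate term, only the groups compared, and each library left out. Ratios were tested by exact permutation over libraries, without the replicate number. No library pair of 1 group agreed within sampling noise.

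Named genes were the 8 members, genes called in each list (at most 4, else the 3 most abundant), neighbours within 100 kb that were called or else the nearest, the 5 genes most like *Ifngr1*, *Ifngr2*, *Jak1* and *Jak2*, and 5 genes of the response. An item of 1 list and an item of 1 marker set are not reported here. The members and lists were chosen with earlier results of these data known.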

Additional observations from a re-analysis of the deposited data

How the results depend on the processing

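The count of 0 called among the 8 genes was the same in each comparison under 23 alternatives. Over 552 values of the 8 genes, 0 passed the threshold (lowest adjusted p 0.151) and 39 changed sign. Without the replicate block, which the labels' numbers do not establish as a pairing (same-numbered libraries correlated at -0.293 to 0.365 in their deviations from the group means, other pairs at -0.309 to 0.307), PD-L1low against control gave 0.093 for *Ifnar2* and -0.14 for *Jak3*, and -0.0032 for *Usp18*. DESeq2 without the block gave 0.10 for *Ifnar2*, -0.13 for *Jak3* and -0.0033 for *Usp18*. With a block the log2 *Jak2* to *Jak1* difference between PD-L1high and control cells was 0.46. Fitting only the groups compared gave -0.0031 for *Ifngr1* and -0.035 for *Jak3* in PD-L1low against control, and -0.022 for *Jak3* between PD-L1high and PD-L1low cells, as did upper quartile scaling (-0.019). Limma-voom gave 0.036 for *Ifngr2* in PD-L1low against control. A non-robust fit, added after seeing the data, called 0 of 8 as well. Over all genes edgeR called 153 higher and 8 lower in PD-L1high against control cells, 10 and 3 in PD-L1low against control cells, and 104 and 15 in PD-L1high against PD-L1low cells. DESeq2 called 213 and 36, 35 and 12, and 158 and 45, limma-voom 200 and 45, 21 and 6, and 138 and 42, and edgeR without the replicate block 124 and 3, 10 and 2, and 83 and 5.

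With CPM in place of TPM the log2 *Ifngr2* to *Ifngr1* difference was -0.19 for PD-L1high against control, -0.45 for PD-L1low against control and 0.26 between the sorted populations, and the *Jak2* to *Jak1* difference was -0.012 for PD-L1low against control. TPM divides by the transcript length that RSEM assigned in each library.

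Leaving out 1 library at a time, PD-L1high against control spanned -0.32 to 0.54 for *Ifngr2*, -0.011 to 0.14 for *Jak1*, -0.053 to 0.23 for *Jak3* and -0.0042 to 0.083 for *Prlr*. PD-L1low against control spanned -0.055 to 0.19 for *Ifngr1*, -0.39 to 0.31 for *Ifngr2*, -0.21 to 0.041 for *Ifnar1*, -0.12 to 0.15 for *Ifnar2*, -0.14 to 0.26 for *Jak3* and -0.061 to 0.21 for *Usp18*. PD-L1high against PD-L1low spanned -0.15 to 0.071 for *Ifnar1*, -0.11 to 0.043 for *Jak1*, -0.20 to 0.24 for *Jak3* and -0.38 to 0.049 for *Tyk2*. The log2 *Ifngr2* to *Ifngr1* difference spanned -0.36 to 0.59 for PD-L1high against control and -0.54 to 0.41 between the sorted populations. The causes were not tested.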
